A study of Mus musculus with 10 samples.

Results

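Fibroblast growth factor (FGF) signalling was followed in mouse aorta through 10 genes: the receptors Fgfr1, Fgfr2 and Fgfr3, the ligands Fgf1, Fgf2 and Fgf10, the receptor adaptor Frs2, and the Sprouty feedback inhibitors Spry1, Spry2 and Spry4. The genes were picked by hand and with earlier results of the same comparison in view, chiefly a lower Fgfr2 level in the mutant, so the mutant and wild-type levels given for them are a description and no independent evidence. Every probe set carrying one of these symbols in the platform's annotation was taken, which gave 20 of the 45101 probe sets in the table and covered 9 of the 10 genes, of 18194 genes with a probe set of their own. No probe set used here carries the symbol Frs2. The study hybridised RNA of aorta from male mice to Affymetrix MOE 430V2 arrays and compared NPAS2 mutants with wild type, on 5 arrays each. Wild-type mice are labelled C57Bl/6 and the mutants are labelled as lying on C57Bl/6J. If the substrain differed, that difference cannot be told apart from the mutation on these arrays. What the mutation is and how old the mice were is not given in the labels. Nor do they tie arrays to mice, so each p value reflects array-to-array spread that may be technical. Both groups were kept in cycles of 12 h light and 12 h dark for at least 2 weeks, then in darkness for at least 30 h, and tissue was taken at zeitgeber time 14 h. In one place the tissue is given as thoracic aorta and in another as a piece running from the arch to beyond the femoral branching.

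In textbook terms, FGF ligands bind receptor tyrosine kinases together with heparan sulfate chains, the activated receptor recruits the adaptor FRS2, and the signal runs through the RAS and MAP kinase cascade to ETS-family and immediate early transcription factors. Sprouty proteins are induced by the same cascade and damp it, which makes their transcripts a customary readout of pathway activity. In the vessel wall FGF1 and FGF2 are known as growth and migration signals for smooth muscle and endothelium, and FGF10 acts on epithelia and on fat cell precursors. NPAS2 is a clock transcription factor that, with BMAL1, binds E-box sequences.

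Npas2 itself was dim: probe set 1421037_at lay between 3.44 and 3.96 in wild type and between 3.38 and 3.47 in the mutant, with overlapping groups and a limma adjusted p of 0.249, and 1421036_at lay between 2.22 and 2.45 on all arrays. Whether these probes lie inside the mutated part is not known here, so they do not check the labels. Arrays were alike in scale, with upper quartiles between 5.40 and 5.55 on the log2 scale, and their number limits the precision. Smooth muscle, endothelial, fibroblast and fat cell markers were all present: the mean wild-type levels were 13.4 for Myh11, 8.05 for Pecam1, 8.86 for Pdgfra, 12.95 for Adipoq and 11.42 for Ucp1, on a table whose highest value was 14.74. Skeletal muscle markers ran from a list mean of 3.14 to one of 11.30 over the 10 arrays, and mutant F12, F19 and F20 and wild type F16 stood above 9. A probe set was tested when it exceeded its own array's median on at least 5 arrays, which 22340 probe sets did. Of the 20 FGF probe sets 11 passed, from 7 genes, and the other 9, among them the single probe sets of Fgf2 and Fgf10, were too dim to test.

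Of the 3 receptors, Fgfr2 was lower in the mutant aorta, while Fgfr1 and Fgfr3 showed no change that passed the test. Fgfr2 encodes a receptor whose splice forms serve epithelial and mesenchymal cells. On probe set 1420847_a_at its log2 level was 6.33, 6.37, 6.14, 6.27 and 6.57 on wild type F11, F14_2, F15, F16 and F17, and 5.65, 5.60, 5.77, 5.67 and 5.94 on mutant F12, F13, F18, F19 and F20. Every mutant array lay below every wild-type array, and the group means were 6.34 ± 0.16 and 5.73 ± 0.13 (SD, n = 5 each). The mean fell by 0.61 on the log2 scale (SE 0.09, 95% interval from -0.81 to -0.41), a 1.53-fold lower level, with a limma adjusted p of 0.0306 over all tested probe sets. This was the 1 called probe set among the 11 tested, beside 48 of 22340, or 0.215%, over the whole table and 0.121% called lower, and since Fgfr2 was chosen on this contrast nothing is read from that ratio. The call was lost when any single array but mutant F20 was left out, with limma adjusted p between 0.0535 and 0.0789 and changes between -0.66 and -0.55, and held without F20 (adjusted p = 0.0441). Without the 4 arrays of high skeletal muscle signal the change was -0.67 ± 0.13 (SE, 4 wild type against 2 mutants, adjusted p = 0.513). In bulk tissue, fewer cells that express Fgfr2 and less transcript per cell cannot be told apart.

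The second tested Fgfr2 probe set, 1433489_s_at, went the same way with a smaller difference. Its levels were 8.14, 7.83, 7.87, 7.95 and 8.39 on wild type F11, F14_2, F15, F16 and F17 and 7.44, 7.61, 7.80, 7.76 and 7.71 on mutant F12, F13, F18, F19 and F20. The groups did not overlap here either, though wild type F14_2 and mutant F18 lay close together. The difference was -0.37 ± 0.11 (SE; 95% interval from -0.62 to -0.12), and its limma adjusted p of 0.182 did not pass. Both probe sets therefore belong to the 4.01% of tested probe sets whose groups do not overlap, and to the 2.5% with the mutant below. The suffix _s_at marks probes that can match transcripts of more than 1 gene, and _a_at marks probes shared by several transcripts of the same gene. The last Fgfr2 probe set, 1443211_at, lay between 2.03 and 2.07 on all 10 arrays and was not tested.

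**Figure D1:**
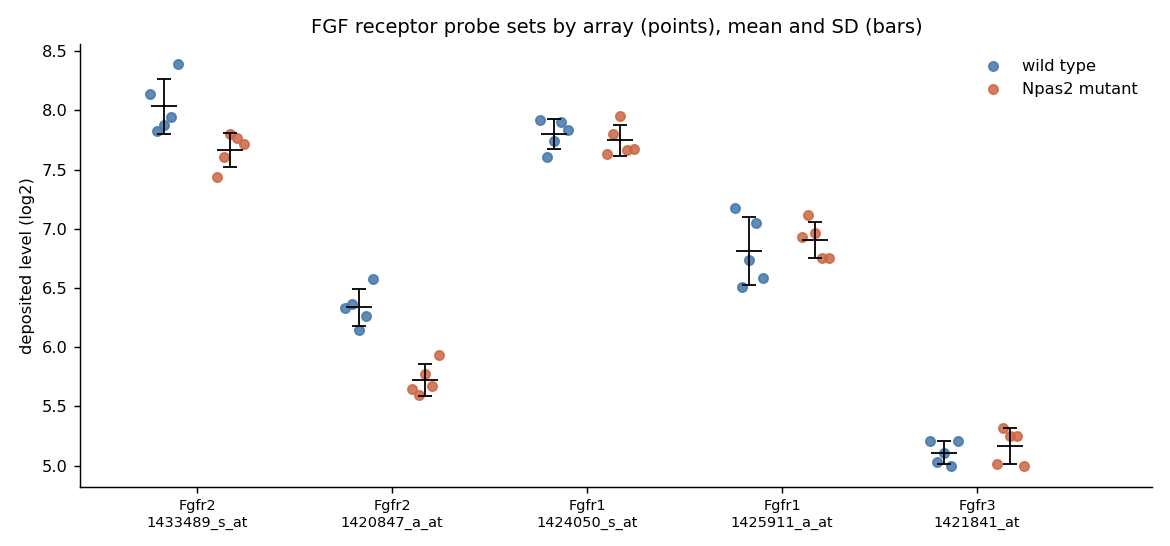
Deposited log2 levels of the 5 tested receptor probe sets on each array (points; blue for wild type, orange for Npas2 mutant), with the mean and SD of the 5 arrays of each group in black. On both Fgfr2 probe sets all mutant arrays lie below all wild-type arrays, while the groups overlap on the Fgfr1 and Fgfr3 probe sets.

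Because NPAS2 is known to act through E-boxes, the start of the changed receptor gene is shown beside that of another receptor. The promoter table (RefSeq, GRCm38.p6) holds 300 bases per start site, 250 before and 50 after it, and matched 7 of the 10 genes with 8 windows. Fgfr1, Fgf1 and Spry4 are not among them. The letters CACGTG, which read the same on both strands, are in capitals where they occur. The Fgfr2 window is chr7:130266759-130267058, minus strand, and the Fgfr3 window is the first of 2 for that gene, chr5:33721474-33721773, plus strand.
Fgfr2: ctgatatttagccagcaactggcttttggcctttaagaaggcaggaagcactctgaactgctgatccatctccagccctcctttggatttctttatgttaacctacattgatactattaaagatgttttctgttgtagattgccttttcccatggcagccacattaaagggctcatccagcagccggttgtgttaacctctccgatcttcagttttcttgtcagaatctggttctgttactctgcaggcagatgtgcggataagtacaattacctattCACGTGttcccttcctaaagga
Fgfr3: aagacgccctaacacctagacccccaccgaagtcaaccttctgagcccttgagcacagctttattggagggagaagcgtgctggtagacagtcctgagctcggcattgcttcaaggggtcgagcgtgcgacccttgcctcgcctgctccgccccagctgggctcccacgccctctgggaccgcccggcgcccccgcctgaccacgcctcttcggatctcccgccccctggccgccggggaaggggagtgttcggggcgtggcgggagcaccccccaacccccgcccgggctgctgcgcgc
CACGTG was found in 1 of the 8 windows, that of Fgfr2, at bases 29 to 34 counted from the start site as base 1. The same letters stand in 7.15% of the 32851 windows of the table. The Fgfr2 window was also the poorest of the 8 in G and C, at 43.7% against a median of 52.7% over all windows, while the other 7 lay between 60.7% and 73.0%. A match describes the letters only, and the arrays did not measure binding. None of the 10 genes lies on chromosome 1, which carries Npas2.

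Fgfr1, the receptor best known in smooth muscle and mesenchyme, showed no difference that passed the test on either tested probe set. On probe set 1424050_s_at it stood at 7.92, 7.61, 7.74, 7.90 and 7.83 on wild type F11, F14_2, F15, F16 and F17 and at 7.64, 7.80, 7.95, 7.66 and 7.67 on mutant F12, F13, F18, F19 and F20. The groups overlapped throughout, and mutant F18 was the highest of all arrays. The difference was -0.05 ± 0.08 (SE; 95% interval from -0.24 to 0.13, limma adjusted p = 0.776). Probe set 1425911_a_at leaned the other way, at 6.81 ± 0.29 in wild type and 6.90 ± 0.15 in the mutant (SD, n = 5 each), a difference of 0.09 with an interval from -0.20 to 0.39 (limma adjusted p = 0.756). Neither interval reaches down to the -0.37 of the less changed Fgfr2 probe set. The interval of that Fgfr2 probe set, from -0.62 to -0.12, overlaps both, and a difference between the receptors was not tested.

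Fgfr3 encodes the receptor known for restraining bone growth. Its tested probe set, 1421841_at, stood at 5.11 ± 0.10 in wild type and 5.17 ± 0.15 in the mutant (SD, n = 5 each). The difference of 0.06 had a 95% interval from -0.12 to 0.24 and a limma adjusted p of 0.757, and mutant F20 was the lowest and mutant F13 the highest of all 10 arrays. A dim Fgfr3 probe set, 1425796_a_at, and a dim Fgfr1 probe set, 1436551_at, varied by 0.035 and 0.038 on the log2 scale over all arrays.

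**Figure D2:**
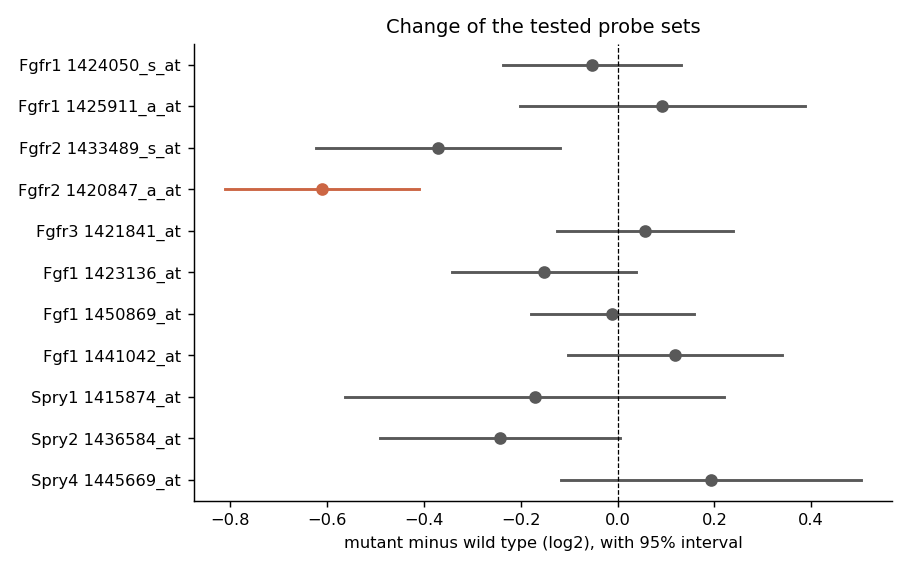
Mutant minus wild type (log2) for the 11 tested probe sets of the FGF genes, with 95% intervals of the limma fit; the orange line passed an adjusted p of 0.05 and the grey lines did not. Both Fgfr2 intervals lie below 0, at -0.61 and -0.37, and the intervals of the other 9 probe sets include 0.

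Among the ligands, Fgf1 alone was bright enough to test. Fgf1 encodes acidic FGF, a secreted growth factor that binds all FGF receptors. On probe set 1423136_at it stood at 6.97, 6.85, 7.11, 6.96 and 6.93 on wild type F11, F14_2, F15, F16 and F17 and at 6.95, 6.81, 6.91, 6.88 and 6.53 on mutant F12, F13, F18, F19 and F20. All mutant arrays were below the wild-type mean, but only mutant F13 and F20 were below the lowest wild-type array, and F20 was well under the rest. The difference was -0.15 ± 0.09 (SE; 95% interval from -0.34 to 0.04, limma adjusted p = 0.411), and without mutant F20 it was -0.08. A second probe set, 1450869_at, gave 6.00 ± 0.11 and 5.99 ± 0.12 (SD, n = 5 each), with a difference of -0.01 that turned to 0.04 after quantile normalisation. The third, 1441042_at, lay between 3.61 and 3.65 on 9 arrays and at 4.16 on mutant F19.

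Fgf2, basic FGF, and Fgf10 gave dim signals in wild type and mutant alike. The Fgf2 probe set, 1449826_a_at, ran from 2.86 to 3.17 in wild type and from 2.88 to 3.33 in the mutant, with the highest value on mutant F19. The Fgf10 probe set, 1420690_at, ran from 2.29 to 2.33 over all 10 arrays. Such values give no ground for a comparison of either ligand, and do not show that its transcript was absent.

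The Sprouty genes, which encode feedback inhibitors of receptor tyrosine kinase signalling, had no called probe set: Spry1 and Spry2 had lower and Spry4 a higher mutant mean. Spry2, on 1436584_at, stood at 7.30, 7.16, 7.48, 7.42 and 7.44 on wild type F11, F14_2, F15, F16 and F17 and at 7.07, 7.22, 6.74, 7.35 and 7.20 on mutant F12, F13, F18, F19 and F20. Every mutant array was under the wild-type mean of 7.36, yet the groups overlapped, since mutant F13, F19 and F20 were above wild type F14_2. The difference was -0.24 ± 0.11 (SE; 95% interval from -0.49 to 0.01, limma adjusted p = 0.334). Without mutant F18 it was -0.15.

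Spry1, on 1415874_at, was the most variable of the tested FGF genes across arrays. It stood at 4.76, 4.64, 4.90, 5.04 and 4.83 on wild type F11, F14_2, F15, F16 and F17 and at 4.70, 4.70, 4.07, 4.59 and 5.25 on mutant F12, F13, F18, F19 and F20. The mutant group held both the highest array, F20, and the lowest, F18, 1.18 apart. The difference of -0.17 ± 0.18 (SE; 95% interval from -0.56 to 0.22, limma adjusted p = 0.652) was -0.02 without mutant F18 and -0.32 without mutant F20. Spry4, on 1445669_at, stood at 4.66 ± 0.32 in wild type and 4.85 ± 0.14 in the mutant (SD, n = 5 each), a difference of 0.19 with an interval from -0.12 to 0.50 and a limma adjusted p of 0.514. All 5 mutant arrays lay above the wild-type mean, but wild type F17, at 5.09, was the highest of the 10. The other 3 Spry4 probe sets and the second of Spry2 lay at 2.77 or below on every array and were not tested.

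**Figure D3:**
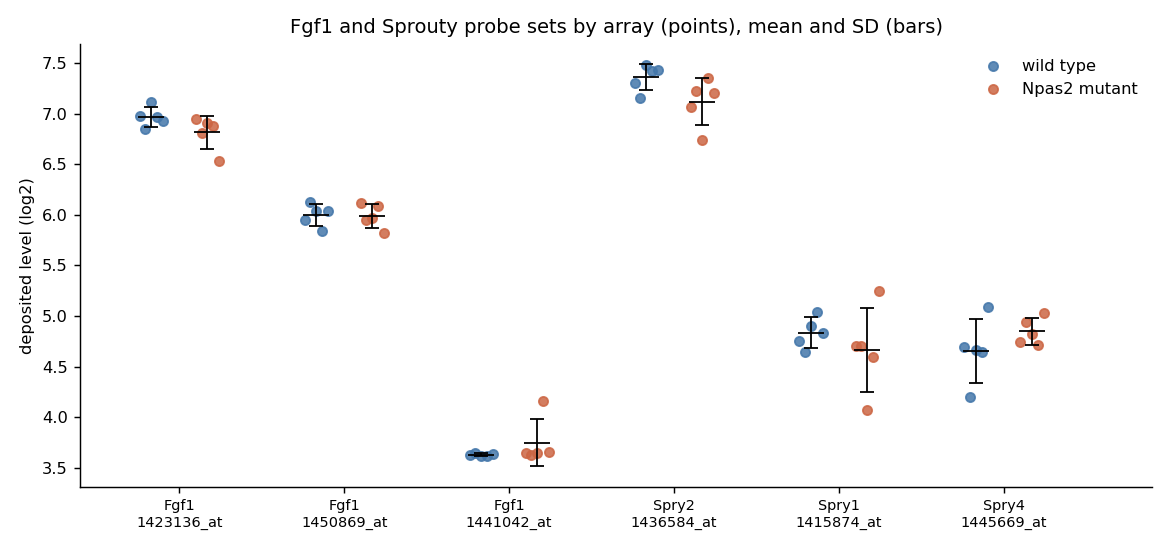
Deposited log2 levels of the tested Fgf1, Spry2, Spry1 and Spry4 probe sets on each array (points; blue for wild type, orange for Npas2 mutant), with the mean and SD of the 5 arrays of each group in black. The groups overlap on every probe set, and mutant F18 is the lowest array for both Spry2 (6.74) and Spry1 (4.07).

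Over the 11 tested FGF probe sets the mutant mean was lower on 7 and higher on 4, with a median difference of -0.05. Over all 22340 tested probe sets the median was -0.03 and 57.6% had a lower mutant mean. Apart from Fgfr2, the 9 probe sets had differences between -0.24 and 0.19, adjusted p of 0.334 or more, and intervals that reached from -0.56 to 0.50 at their widest. At an unadjusted limma p of 0.05, 2 of the 11 passed, both of Fgfr2, beside 15.3% of all tested probe sets.

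Markers of brown fat, the thermogenic fat that surrounds the mouse thoracic aorta, moved opposite to Fgfr2 between the groups. They were higher in the mutant, where Fgfr2 was lower. The mean of the 10 brown fat genes ran from 8.11 to 8.68 over the wild type and from 8.94 to 9.70 over the mutants, and all 10 genes had a higher mutant mean. Inside the groups the relation differed between arrays and probe sets. Wild type F17 had the least brown fat signal of all arrays, at 8.11, and the most Fgfr2 on both probe sets, at 6.57 and 8.39. On 1420847_a_at the other 4 wild-type arrays did not continue that order. There F14_2 and F11 had more brown fat signal (8.68 and 8.66) than F15 and F16 (8.60 and 8.50) and also more Fgfr2. On 1433489_s_at wild type F14_2, F15 and F16 continued the order, at 7.83, 7.87 and 7.95, and F11, at 8.14, did not. Among the mutants, the order of brown fat signal from F18 (8.94) through F19 (9.11), F20 (9.25) and F13 (9.46) to F12 (9.70) was exactly the reverse of the order of Fgfr2 on 1433489_s_at, from 7.80 down to 7.44. On 1420847_a_at the order was looser, with mutant F20 the highest of its group at 5.94. With the brown fat mean as a covariate the Fgfr2 difference was -0.37 ± 0.16 (SE, limma adjusted p = 0.601) on 1420847_a_at and 0.10 ± 0.14 on 1433489_s_at. The covariate does not overlap between the groups, so genotype and brown fat signal cannot be told apart in these arrays.

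**Figure D4:**
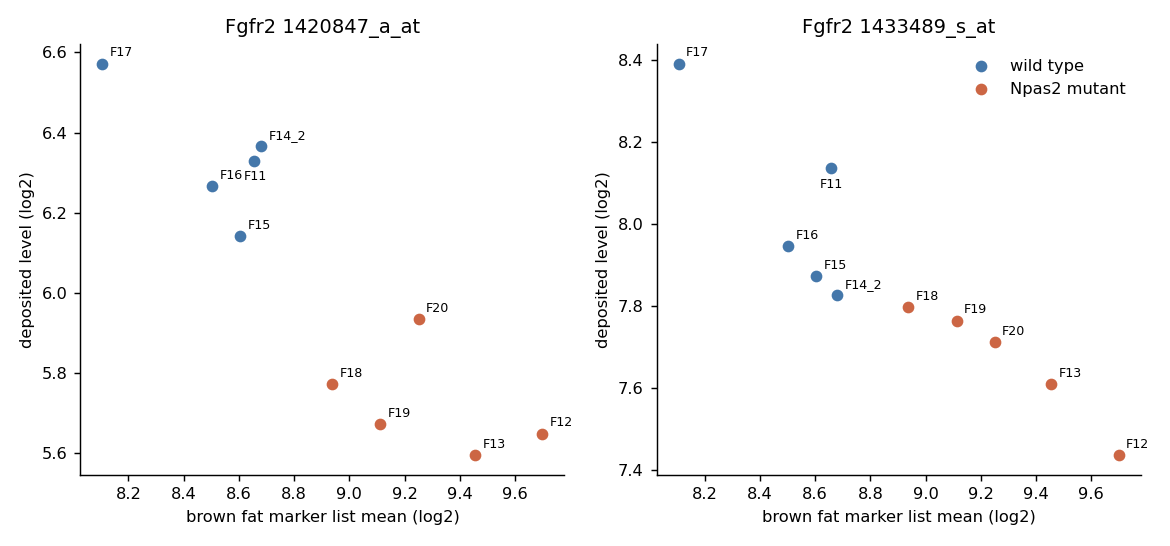
Fgfr2 level (log2, vertical) against the mean log2 level of 10 brown fat markers (horizontal) on each array, for probe sets 1420847_a_at and 1433489_s_at; blue points are wild type, orange points Npas2 mutant, and labels name the arrays. Wild type F17 is at the upper left of both panels, and on 1433489_s_at the 5 mutant arrays descend in step from F18 to F12.

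Contractile smooth muscle markers were lower in mean in the mutant for 8 of 8 genes, with list means of 11.44 to 11.70 on the wild-type and 11.28 to 11.51 on the mutant arrays, and macrophage markers were higher for 6 of 6, at 6.81 to 7.07 and 7.05 to 7.51. Of the 8 marker lists, brown fat had an exact two-sided permutation p of 0.00794, the smallest that 5 against 5 arrays allow, smooth muscle 0.0397 and macrophage 0.0159. After Benjamini-Hochberg adjustment over the 8 lists these exact permutation p values were 0.0635, 0.106 and 0.0635. The fibroblast list, with Pdgfra at 8.86 and 8.91, and the endothelial, adipocyte, nerve and skeletal muscle lists had adjusted exact permutation p values of 0.724 or more. The part of smooth muscle and macrophage content in the Fgfr2 difference was not tested.

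The rest of the pathway was read from 5 lists of 87 genes, of which 61 had a tested probe set and entered with their brightest one. None of the 61 was called by limma, nor by a one-way analysis of each probe set on its own, and 8 had an unadjusted limma p under 0.05, 1 higher and 7 lower, which is 13.1% beside 15.3% of all tested probe sets. Their median difference was -0.01, with 32 lower and 29 higher mutant means.

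The heparan sulfate and co-receptor list held 18 measured genes, 9 with a higher and 9 with a lower mutant mean, and 3 of the 18 had an unadjusted p under 0.05, a share near the 15.3% of all tested probe sets. These were Gpc3, Gpc6 and Hspg2, which encode proteoglycan cores. Some other cores of the list had higher mutant means that did not pass, among them Gpc1 (0.33) and Gpc4 (0.15). For Gpc1, mutant F12 stood at 5.65, the other mutants between 4.39 and 4.60, and wild type between 4.23 and 4.70. The other tested Gpc4 probe set had a difference of -0.04. Gpc3, glypican 3, stood at 7.57, 7.53, 7.75, 7.45 and 7.61 on wild type F11, F14_2, F15, F16 and F17 and at 6.67, 7.20, 7.15, 7.14 and 7.21 on mutant F12, F13, F18, F19 and F20. No mutant array reached the lowest wild-type array, and the difference was -0.50 ± 0.11 (SE, limma adjusted p = 0.0944). Gpc6, glypican 6, had non-overlapping groups too, at 9.79 ± 0.09 in wild type and 9.39 ± 0.20 in the mutant (SD, n = 5 each), with a difference of -0.40 (adjusted p = 0.121). Gpc3 and Gpc6 were the 2 of the 61 pathway genes whose groups did not overlap, beside 4.01% of all tested probe sets. Nothing is read from that share. Of the other 3 tested Gpc6 probe sets, 1437417_s_at was called, with a difference of -0.36 (adjusted p = 0.0320), and 1419688_at (-0.54) and 1419689_at (-0.10) were not. That Gpc6 call was known when the list was written. Hspg2, perlecan, had a difference of -0.25 (adjusted p = 0.272), and its other tested probe set had one of 0.03.

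All 6 measured genes of the other receptors and ligands had a lower mutant mean, as did 57.6% of all tested probe sets. The differences of Fgf11 and Fgf14 were -0.009 each. Both genes and Fgfbp3 (-0.19) were dim, with wild-type means from 3.36 to 3.52. Fgfrl1, which encodes a receptor lacking the kinase domain, had a difference of -0.24 (95% interval from -0.45 to -0.03, limma adjusted p = 0.274). Fgf13, an intracellular FGF homologue that binds sodium channels, had one of -0.26 (adjusted p = 0.320). Fgf7, keratinocyte growth factor and a ligand of the epithelial form of Fgfr2, had one of -0.02 (95% interval from -0.40 to 0.36, adjusted p = 0.974). The other tested Fgf7 probe set, which was dimmer, had a difference of -0.22.

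The 17 measured signal relay genes had a median difference of -0.01. Pik3r1, a regulatory subunit of phosphoinositide 3-kinase, had the largest, 0.32 ± 0.09 (SE, limma adjusted p = 0.149), and all 4 of its tested probe sets were higher in mean, from 0.28 to 0.39. Braf, a kinase of the MAP kinase cascade, had a difference of -0.27 (adjusted p = 0.404). Among the 11 measured feedback inhibitors beyond the Sprouty genes, Spred1, a Sprouty relative, had a difference of 0.24 (adjusted p = 0.364) and Il17rd, also called Sef, one of 0.21 (adjusted p = 0.589). The 9 measured transcriptional targets split 5 higher and 4 lower. Ier3, an immediate early gene, had a difference of -0.38 (adjusted p = 0.245) and Phlda1 one of 0.38 (adjusted p = 0.380).

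**Figure D5:**
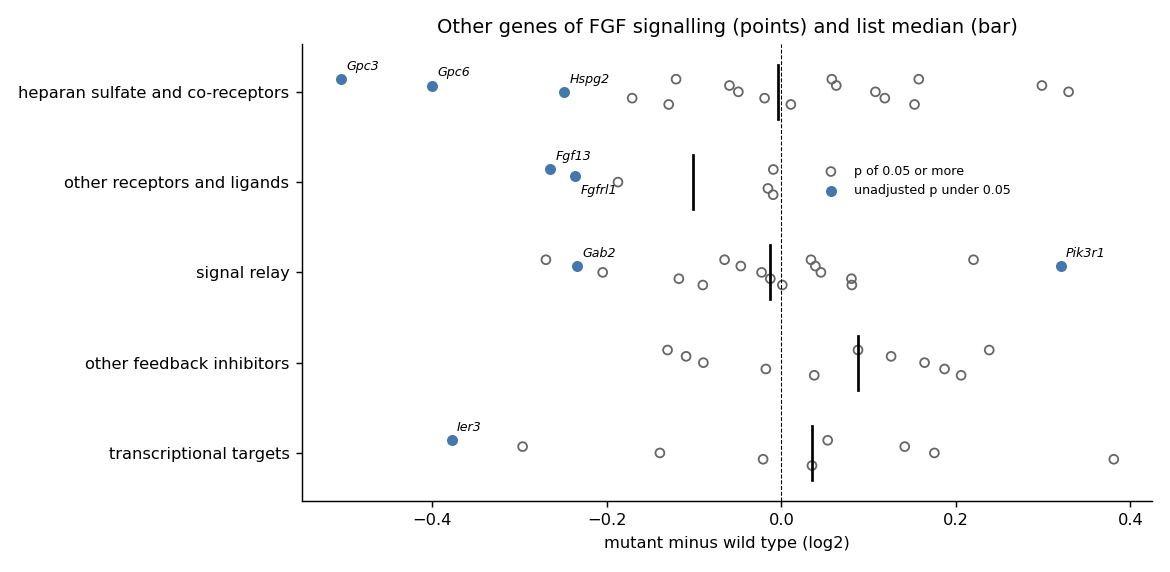
Mutant minus wild type (log2) for 61 other genes of FGF signalling in 5 lists, each gene a point and each list's median a black bar; filled, named points have an unadjusted limma p under 0.05. The 3 leftmost points of the heparan sulfate list are Gpc3, Gpc6 and Hspg2, and no point passed the adjusted threshold.

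Genes whose array-to-array pattern resembled that of Fgfr2 were sought after removing each group's mean, so that the contrast itself played no part. The 5 genes most like 1420847_a_at over the 10 arrays were Adam25 (Pearson correlation 0.966), Egr2 (0.965), Atpif1 (0.938), Chit1 (0.938) and Usp14 (0.920). Without the arrays farthest from the median, wild type F17 and mutant F20, the correlations over the remaining 8 lay between 0.744 and 0.919. Their mean levels lay between 3.16 and 3.96 in both groups, near the low end of the range, and all 5 were highest on wild type F17 or mutant F20. Over the 10 arrays Adam25, Egr2, Atpif1 and Chit1 varied by only 0.20 to 0.33. Usp14 varied by 0.72, and Fgfr2 1420847_a_at itself by 0.98. None of the 5 genes differed between the groups by the test, with limma adjusted p of 0.484 or more. These values were the extreme of a search over all tested probe sets with a single gene name, with arrays as the points, and describe a shared pattern only. Among the tested FGF probe sets themselves, the 5 largest correlations in size were 0.704 for Fgfr2 1433489_s_at with Spry4, 0.689 for the pair of Fgfr1 probe sets, -0.682 for Fgfr2 1420847_a_at with Fgf1 1423136_at, 0.674 for Spry1 with Spry2 and 0.664 for the pair of Fgfr2 probe sets. Fgfr2 1420847_a_at with Spry4 gave 0.449. Wild type F17 was the highest of the 10 arrays for both Fgfr2 1433489_s_at (8.39) and Spry4 (5.09). The 5 pairs were picked as the extremes of all pairs, and their correlations were not repeated with arrays left out.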

How the data were processed

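Biotin-labelled RNA of aorta was read on 10 Affymetrix MOE 430V2 arrays. The authors deposited log2 expression values, 1 per probe set and array, summarised and normalised by them. GCRMA and MAS5 are named in the submitters' processing notes, without version or role, and the log2 scale was read from the values (1.10 to 14.74). No scan date was at hand, so batches were not examined. Of 45101 probe sets 34958 had a single gene name in the platform's annotation, 932 several and 9160 none (64 controls aside), and 34754 symbols were taken from RefSeq by gene identifier.

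Values were used as deposited. Mutant minus wild type was fitted with limma 3.58.1 in R 4.3.3 (lmFit and eBayes, two-sided, Benjamini-Hochberg over 22340 tested probe sets, threshold 0.05). Marker list means were compared by exact permutation tests. The fit was tested on simulated data. Members and lists were chosen with earlier results of these data known. Named were all member probe sets, the called genes (at most 4) and the 2 largest changes of each pathway list, 5 genes by likeness and the defining cell type markers. Hspg2, Fgf7, Fos, Egr1, Dusp6 and Etv5 were named after their values were seen. Gpc1, Gpc4, Fgf11, Fgf14 and Fgfbp3 were also named outside these rules. Labels share no replicate numbers between groups, so no pairing was used. Alternatives covered the filter, scaling, variance model, array weights, covariates, probe set choice and leaving out each array; leaving out 4 arrays rich in muscle signal was added after seeing the data.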

Additional observations from a re-analysis of the deposited data

Results flagged for a closer look

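Of 56 groups of 5 arrays examined (20 FGF probe sets and 8 marker list means in each genotype), 5 held an array far from the other 4 by Dixon's criterion. Chance gives about 1 in 20 for independent, normally spread values. These groups share arrays and many of the probe sets were dim, so nothing is read from a comparison with that rate. On Fgf1 1441042_at mutant F19 stood at 4.16 and the other mutants between 3.62 and 3.65. On Fgf2 1449826_a_at mutant F19 stood at 3.33 and the next array at 2.99. On Spry4 1422021_at mutant F19 stood at 2.59 and the next at 2.44, and on Spry4 1440867_at mutant F20 stood at 2.77 and the next at 2.48. The fibroblast list mean of wild type F14_2 was 10.63, with the other wild-type arrays between 10.93 and 11.05. The Fgf2 probe set and both Spry4 probe sets were too dim to be tested.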

How the results depend on the processing

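Of the 11 tested FGF probe sets 1 was called in the main setting. The count was 0 with no filter on dim probe sets, after quantile normalisation, by a one-way analysis of each probe set on its own, with the brown fat or the skeletal muscle list mean as a covariate, and with the 4 arrays of high muscle signal left out (4 wild type against 2 mutants, a choice made after seeing the data). It ran from 0 to 1 when each array was left out. For Fgfr2 1420847_a_at the direction was the same in all 21 alternatives, between -0.67 and -0.37, and the call held in 6 of them, with limma adjusted p from 0.0115 (filter at the 75th percentile) to 0.601 (brown fat covariate). Signs turned as follows: Fgf1 1450869_at to 0.0387 after quantile normalisation and between -0.0507 and 0.0312 when each array was left out; Fgfr1 1424050_s_at to 0.12 with the brown fat covariate and 0.10 without the muscle-rich arrays; Fgfr1 1425911_a_at to -0.10 and Fgfr2 1433489_s_at to 0.10 with the brown fat covariate. Of the pathway genes 0 were called in the main setting, 1 (Gpc3) with the filter at the 75th percentile and 1 (Gpc6) when each gene's probe sets were averaged. Of all tested probe sets, 48 were called by limma in the main setting, 17 with no filter, 141 with the filter at the 75th percentile, 13 by the one-way analysis, 7 and 1 with the skeletal muscle and brown fat covariates, and from 9 (without wild type F16) to 43 (without wild type F14_2) when each array was left out. Some of these settings also differ in the number of probe sets tested or of arrays, and what made the counts change was not tested. Dim signal leaves Fgf2 and Fgf10 without a usable value.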

Other observations

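Immediate early genes and known readouts of the MAP kinase cascade varied widely between arrays of the same genotype, and Spry1 varied with some of them. Fos, which encodes a component of AP-1, stood at 5.68, 5.05, 7.96, 9.96 and 9.55 on wild type F11, F14_2, F15, F16 and F17 and at 7.68, 7.65, 5.09, 7.57 and 8.74 on mutant F12, F13, F18, F19 and F20. Egr1, an early growth response factor, was low on the same 3 arrays, at 7.61 and 7.25 on wild type F11 and F14_2 and at 7.50 on mutant F18, and between 8.37 and 9.40 on the others. Dusp6, a phosphatase of ERK that is induced by FGF signalling, stood at 6.27, 6.32 and 6.27 on those 3 arrays and between 6.76 and 7.52 on the others. Spry1 was lowest of its group on wild type F14_2 (4.64) and mutant F18 (4.07) and highest on wild type F16 (5.04) and mutant F20 (5.25), which were also the highest of their groups for Fos and Egr1. Etv5, an ETS factor often used as a readout of FGF signalling, stood at 5.60 on wild type F11 and between 5.33 and 5.41 on the other 9 arrays. These genes were picked after their values were seen, and nothing was tested.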
